A study of Rattus norvegicus with 12 samples.

Results

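The collagen chains of the rat heart were examined 28 days after a volume load was imposed by an aorto-caval shunt, a surgical passage that returns arterial blood directly to the vena cava. Members were taken by name: a probe set, the unit of an Affymetrix array, counted when its only gene symbol in the platform annotation was that of a collagen alpha chain. This gave 58 probe sets of 41 genes, out of 31042 probe sets and 14217 named genes. They fall into 11 fibrillar, 5 basement membrane and 25 other chains. The animals were male Sprague Dawley rats, all of 1 strain with no genetic change in the labels, and tissue was the left atrial appendage or the left ventricular free wall. The 4 groups were sham atrium, shunt atrium, sham ventricle and shunt ventricle, each with 3 arrays, and each array held RNA pooled from 2 tissues, so that no value belongs to 1 animal. The pools are described as biological replicates, and the p-values measure the spread between pools. The ages of the rats are not given in the sources used here.

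Collagens are triple helices of 3 alpha chains, and the chain composition decides what is built. Fibrillar collagens, above all types I and III, form the tension-bearing fibres around heart muscle bundles, and are made mainly by fibroblasts. Type IV collagen forms the sheet-like network of the basement membrane that wraps each myocyte and every capillary. The remaining chains form beaded filaments (type VI), hexagonal networks (type VIII), molecules that sit on the surface of fibrils, and proteoglycan-like collagens at the border of the basement membrane (types XV and XVIII). In volume overload, matrix around myocytes is known to be remodelled, with less fibrosis than under pressure overload.

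The type IV genes lie in the genome in pairs that point away from each other, and the start regions of the pairs measured here are shown because the results turn on these genes. Sequences are from RefSeq, assembly GRCr8, each 250 bases before to 50 bases after the start of the transcript, read on the gene's own strand. Capitals mark 3 promoter motifs, searched as written and as the reverse complement, which do not overlap each other in these windows. The TATA box was searched as the letters TATAAA. The box named after its letters was searched as CCAAT. The GC box was searched as the letters GGGCGG.
Col4a1 (chr16:84885347-84885646, plus strand): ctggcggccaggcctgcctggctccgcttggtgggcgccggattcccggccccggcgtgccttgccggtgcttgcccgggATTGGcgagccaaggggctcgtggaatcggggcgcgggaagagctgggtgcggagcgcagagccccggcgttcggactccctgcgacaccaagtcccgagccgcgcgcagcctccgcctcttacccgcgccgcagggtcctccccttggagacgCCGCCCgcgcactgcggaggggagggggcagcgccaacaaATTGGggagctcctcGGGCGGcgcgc
Col4a2 (chr16:84885471-84885770, minus strand): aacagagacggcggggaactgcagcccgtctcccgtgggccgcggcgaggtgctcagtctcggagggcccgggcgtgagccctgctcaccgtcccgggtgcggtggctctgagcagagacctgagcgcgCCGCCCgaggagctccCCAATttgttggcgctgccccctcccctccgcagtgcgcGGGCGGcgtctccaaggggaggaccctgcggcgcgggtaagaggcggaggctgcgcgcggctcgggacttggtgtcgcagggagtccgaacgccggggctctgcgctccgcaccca
Col4a5 (chrX:109907109-109907408, plus strand): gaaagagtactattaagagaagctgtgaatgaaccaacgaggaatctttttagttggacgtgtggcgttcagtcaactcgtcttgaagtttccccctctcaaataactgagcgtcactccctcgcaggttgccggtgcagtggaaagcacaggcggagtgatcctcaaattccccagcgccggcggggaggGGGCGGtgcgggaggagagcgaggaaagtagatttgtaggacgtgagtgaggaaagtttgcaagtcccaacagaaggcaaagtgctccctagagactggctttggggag
Col4a6 (chrX:109905895-109906194, minus strand): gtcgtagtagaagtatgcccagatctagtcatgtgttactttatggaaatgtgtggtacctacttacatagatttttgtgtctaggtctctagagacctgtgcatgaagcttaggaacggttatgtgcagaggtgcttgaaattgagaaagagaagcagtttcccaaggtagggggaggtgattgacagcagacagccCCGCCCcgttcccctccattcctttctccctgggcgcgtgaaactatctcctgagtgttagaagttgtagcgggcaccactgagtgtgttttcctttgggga
The starts of Col4a1 and Col4a2 were 77 bases apart, and their windows shared 176 bases. The starts of Col4a5 and Col4a6 were 1415 bases apart, with no shared base in the windows. None of these 4 windows held TATAAA, which was in 14.2% of all 33469 windows in the table. CCAAT was in the windows of Col4a1 and Col4a2, against 37.5% of all windows, and GGGCGG was in all 4, against 33.1%. Every match in the Col4a2 window lay in the 176 shared bases. Each is the same stretch of DNA as a match of Col4a1, read on the other strand. The windows of this pair are thus not separate observations. Of 41 collagen genes, 32 had a window, some more than 1. Over the 35 windows, some of which overlap, 4 held TATAAA, 10 held CCAAT and 19 held GGGCGG. A match is a description of letters and not a measured binding site.

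All expression values are log2 values, on which a difference of 1 is a doubling, and a value of 1 probe set was never set against that of another. Of the 58 collagen probe sets, 35 of 25 genes had a mean over the 12 arrays at or above the filter value of 4.01 and were tested. Fibrillar chains kept 8 of 11 genes, basement membrane chains 4 of 5 and other chains 13 of 25. The 16 genes with no tested probe set included Col2a1, the fibrillar chain of cartilage, and the epithelial chains Col7a1 and Col17a1, and no array value of these 16 genes was above 4.29. Just inside the filter lay Col9a2, with a mean of 4.06, and just outside it the highest mean was 3.99. Each gene is given by its tested probe set of highest mean unless stated otherwise.

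Arrays of 1 group correlated at 0.990 to 0.997. Chamber labels were borne out by marker genes: the mean level of 4 ventricular myocyte markers was 5.32 to 6.65 on atrial arrays and 11.18 to 11.61 on ventricular arrays. The third array of the shunt atria lay farther from its group mean than any other, with a root mean square deviation of 0.200 against 0.0913 to 0.163 on the other 11. The array carries control probe sets at both ends of the hexokinase transcript, and the signal at the 3′ end less that at the 5′ end, which grows as RNA or labelling quality drops, was highest on the same array, at 1.44, against 0.80 and 0.94 on the other shunt atria and 1.01 to 1.10 on the sham atria. In the ventricle this difference was 1.23, 0.82 and 1.18 on shunt arrays 1, 2 and 3, and 0.84 to 1.02 on sham arrays. Values without these arrays are given where the results depend on them.

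In the shunt atrium, the basement membrane chain Col4a2 rose and Col6a6, a chain of the type VI family, fell. These were 2 of 35 collagen probe sets past the threshold (limma, Benjamini-Hochberg adjusted p under 0.05), against 1.3% of all probe sets tested. No fibrillar chain was called. Neither call passed a test against a minimum fold of 1.5. In the shunt ventricle no collagen probe set was called by limma, where 0.107% of all probe sets were. An unadjusted p under 0.05 was found for 5 of 35, beside 2732 of all 18625 probe sets, a like share. Without atrial shunt array 3, 5 collagen probe sets were called in the atrium. The share of all probe sets called in that fit is not given here, so the change is not shown to be particular to collagens. Its cause was not tested.

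Col4a2, which with Col4a1 builds the common type IV network of all basement membranes, was measured at 9.23, 9.11 and 9.20 in the sham atria and 9.76, 9.75 and 9.67 in the shunt atria. All shunt atria were above all sham atria, including the third. The difference was 0.55 ± 0.07 (SE, n = 3 per group, limma adjusted p = 0.00536), a 1.46-fold rise with a 95% interval of 0.39 to 0.71. In the ventricle Col4a2 stood at 9.95, 9.94 and 9.83 in sham hearts and at 10.07, 10.29 and 10.27 after shunt. These groups did not overlap either, but the difference of 0.30 ± 0.07 did not pass (limma adjusted p = 0.113). Averaged over both chambers, the shunt effect on Col4a2 was 0.42 ± 0.05 (limma adjusted p = 0.00207). It was called in all 12 fits that left out 1 array, in the atrium and in the average.

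Col4a1, the partner chain in the same helix, had values of 9.72, 9.61 and 9.75 in the sham atria and 10.15, 9.96 and 9.71 in the shunt atria. Here 2 of the shunt atria were above all sham atria and the third lay among them, and the difference of 0.24 ± 0.10 was not called (limma adjusted p = 0.284). In the ventricle, values were 10.40, 10.33 and 10.33 in sham and 10.45, 10.66 and 10.62 after shunt, with no overlap and a difference of 0.23 ± 0.10 (limma adjusted p = 0.333). The second Col4a1 probe set differed by 0.32 in the atrium and 0.12 in the ventricle, neither of them called.

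Col4a5 and Col4a6 are chains of a second type IV network, best known from kidney and from smooth muscle. Col4a5 was measured at 9.39, 9.43 and 9.40 in sham atria and 9.93, 9.73 and 9.45 in shunt atria, and at 8.63, 8.52 and 8.40 in sham ventricles and 8.93, 9.07 and 8.72 in shunt ventricles. In both chambers every shunt array was above every sham array, although the third shunt atrium was above by little. The differences were 0.30 ± 0.12 in the atrium (limma adjusted p = 0.259) and 0.39 ± 0.12 in the ventricle (limma adjusted p = 0.179), and the average over both was 0.34 ± 0.08, which passed (limma adjusted p = 0.0406). That call was near the threshold: of the 12 fits that left out 1 array it held only without atrial shunt 3 or ventricular shunt 3, and the adjusted p ranged from 0.00957 to 0.0977. With no filter it was lost as well (limma adjusted p = 0.0528). It was also lost when same-numbered arrays of 1 operation were treated as a block (limma adjusted p = 0.0601). Col4a6 read 5.87, 5.98 and 5.76 in sham atria against 6.43, 6.25 and 5.76 in shunt atria, where the third shunt value equalled the lowest sham value. Its difference of 0.28 ± 0.14 was not called (limma adjusted p = 0.373), but without that array it was 0.47 (limma adjusted p = 0.0232). In the ventricle Col4a6 lay between 4.63 and 4.76 in sham and between 4.69 and 4.87 after shunt, a difference of 0.06 ± 0.14.

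**Figure D1:**
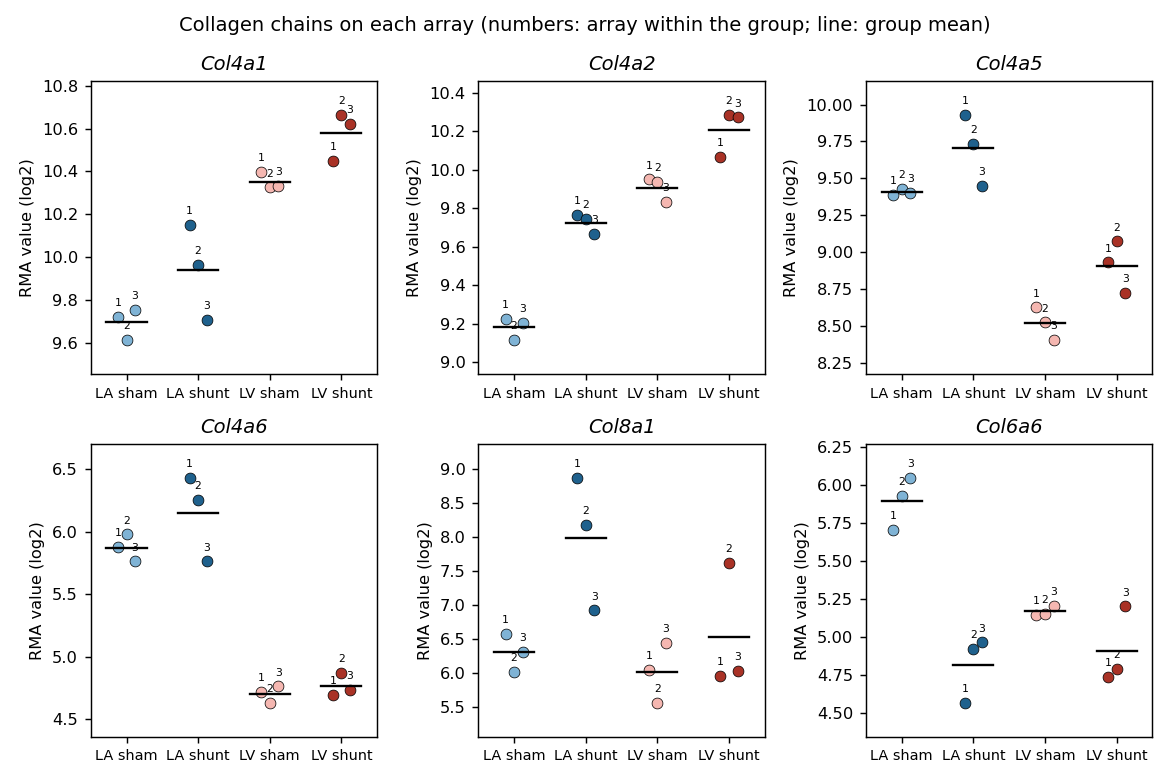
Log2 expression (vertical axis) of 6 collagen chains on each of the 12 arrays, grouped by chamber and operation (horizontal axis); each point is 1 array of pooled RNA. Col4a2 is higher on all shunt atria than on all sham atria, Col6a6 is lower, and Col8a1 spreads from 6.92 to 8.87 among the shunt atria.

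Fibrillar chains showed no common shift with the shunt. Over the 8 genes tested, the median difference was 0.01 in the atrium, with 4 genes above and 4 below 0, and 0.02 in the ventricle, with 5 above and 3 below. The median over all probe sets tested was -0.01 in either chamber. No fibrillar probe set was called in either chamber or in their average (limma). In each of these 1 of 12 had an unadjusted p under 0.05. Of all 18625 probe sets, 2838 did in the atrium, 2732 in the ventricle and 4165 in the average. The calls in the average were made for 4.8% of all probe sets.

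Col1a1 and Col1a2 encode the chains of type I collagen, the main load-bearing fibre. Col1a1 was at 11.00, 11.06 and 10.99 in sham atria, 11.16, 11.01 and 10.75 in shunt atria, 10.04, 10.15 and 10.23 in sham ventricles and 9.94, 10.45 and 10.04 in shunt ventricles. Shunt arrays lay on both sides of the sham arrays in each chamber. The 95% interval of the difference ran from -0.33 to 0.24 in the atrium and from -0.28 to 0.29 in the ventricle. Col1a2 was at 10.84, 10.91 and 10.90 in sham atria and 11.31, 11.15 and 10.58 in shunt atria, with a difference of 0.13 ± 0.16 that hid 2 high arrays and 1 low one. In the ventricle Col1a2 was at 9.96, 9.86 and 10.01 in sham and 9.77, 10.18 and 9.81 after shunt.

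Col3a1, the chain of the thinner and more elastic type III fibres, was at 12.26, 12.33 and 12.35 in sham atria and 12.46, 12.37 and 12.18 in shunt atria. In the ventricle it was at 11.69, 11.67 and 11.77 in sham and 11.71, 11.84 and 11.69 after shunt. Its intervals were the narrowest of the main fibrillar chains, -0.15 to 0.20 in the atrium and -0.14 to 0.21 in the ventricle, and the groups overlapped in both chambers.

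Type V collagen starts type I fibrils and limits their width. Its chain Col5a1 lay at 7.99 to 8.12 in sham atria and 7.96 to 8.25 in shunt atria, and at 7.96 to 8.06 and 8.03 to 8.21 in sham and shunt ventricles. Col5a2 had values of 9.41, 9.44 and 9.50 in sham atria and 9.89, 9.67 and 9.30 in shunt atria. In the ventricle it had 9.03, 8.87 and 9.07 in sham and 9.19, 9.28 and 9.08 after shunt, groups that did not overlap, with a difference of 0.20 ± 0.12 (limma adjusted p = 0.497). The shunt atria thus lay on both sides of the sham atria for Col5a2, and Col5a1 groups overlapped in both chambers. Col5a3, a less common chain of type V, was at 6.63, 6.45 and 6.56 in sham atria and 6.39, 6.11 and 6.40 in shunt atria, the only fibrillar chain whose atrial groups did not overlap, with a difference of -0.25 ± 0.09 (limma adjusted p = 0.230). In the ventricle Col5a3 stood at 6.80 to 7.05 in sham and 6.70 to 6.82 after shunt, a difference of -0.18 ± 0.09. The minor fibrillar chains Col24a1 and Col27a1 differed by 0.11 and -0.03 in the atrium and by -0.08 and 0.15 in the ventricle, none of them called.

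Type VI collagen forms beaded filaments that anchor cells to the matrix. Its core chains Col6a1 and Col6a2 differed little in the atrium, by 0.06 ± 0.06 and 0.05 ± 0.09. In the ventricle Col6a1 was at 8.94, 8.88 and 9.04 in sham and 9.09, 9.15 and 9.14 after shunt, with no overlap and a difference of 0.17 ± 0.06 (limma adjusted p = 0.249). Col6a2 was at 8.89, 8.86 and 8.89 in sham atria and 9.09, 8.88 and 8.82 in shunt atria, and at 8.78, 8.53 and 8.59 in sham ventricles and 8.69, 8.86 and 8.81 in shunt ventricles. The Col6a2 groups overlapped in both chambers. Col6a3, the third core chain, was at 9.44, 9.33 and 9.40 in sham atria and 9.05, 9.11 and 8.81 in shunt atria. All shunt atria were lower than all sham atria, and the difference of -0.40 ± 0.09 lay just outside the threshold (limma adjusted p = 0.0665). The second Col6a3 probe set differed in the same direction, by -0.57 (limma adjusted p = 0.237), with its lowest value, 5.01, on atrial shunt 3. In the ventricle Col6a3 was at 9.24, 9.27 and 9.40 in sham and 9.08, 9.36 and 9.16 after shunt.

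Col6a6, a long chain related to Col6a3, was at 5.71, 5.93 and 6.05 in sham atria and 4.57, 4.93 and 4.97 in shunt atria. The lowest sham atrium was well above the highest shunt atrium, and the fall of 1.07 on the log2 scale (SE 0.14, limma adjusted p = 0.00447) was 2.11-fold, with a 95% interval of -1.38 to -0.77. In the ventricle it was at 5.15, 5.16 and 5.21 in sham and 4.74, 4.79 and 5.20 after shunt, with 2 lower arrays and 1 at the sham level. That difference of -0.26 ± 0.14 was not called (limma adjusted p = 0.409), while the average over both chambers, -0.67 ± 0.10, was (limma adjusted p = 0.00576). Leaving out any 1 of the 12 arrays kept both the atrial and the average fall past the threshold.

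Col8a1 and Col8a2 form the type VIII network, found in vessel walls and laid down by cells that migrate or divide. They and Col12a1 were singled out after their values were seen. Col8a1 was at 6.57, 6.02 and 6.32 in sham atria and 8.87, 8.18 and 6.92 in shunt atria, the widest spread of the 25 chains in that group. All shunt atria were above all sham atria, yet the difference of 1.69 ± 0.50 was not called (limma adjusted p = 0.133). Without atrial shunt 3 it was 2.22 and was called (limma adjusted p = 0.0262). In the ventricle Col8a1 was at 6.05, 5.56 and 6.44 in sham and 5.96, 7.62 and 6.03 after shunt, where the excess lay on shunt array 2, the array of lowest hexokinase difference in that group. Col8a2 was at 4.92, 5.51 and 4.95 in sham atria and 6.02, 5.38 and 5.57 in shunt atria, with overlap and a difference of 0.53 ± 0.21 (limma adjusted p = 0.249). In the ventricle it was at 4.90, 4.65 and 4.24 in sham and 4.35, 4.38 and 4.65 after shunt.

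Among the chains on fibril surfaces, Col12a1, typical of tissue under tension, was at 4.56, 5.07 and 4.74 in sham atria and 5.47, 5.55 and 5.20 in shunt atria, without overlap, with a difference of 0.61 ± 0.21 (limma adjusted p = 0.193). In the ventricle it was at 3.84, 4.60 and 4.07 in sham and 4.36, 4.66 and 3.96 after shunt, with overlap. Col14a1, which regulates fibril growth, was at 9.70, 9.72 and 9.69 in sham atria and 10.04, 10.02 and 9.56 in shunt atria, so that 2 arrays were above and the third below. In the ventricle, Col14a1 stood at 8.48, 8.40 and 8.53 in sham and at 8.39, 8.95 and 8.32 after shunt. Its differences were 0.17 in the atrium and 0.09 in the ventricle. The second Col14a1 probe set had the other sign in both, -0.04 and -0.15, and no difference was called. The other chains of this kind with a tested probe set, Col9a2, Col16a1 and Col20a1, differed by 0.10 to 0.15 in the atrium and by 0.01 to 0.14 in the ventricle, none of them called. Col15a1 and Col18a1, the proteoglycan-like chains beside the basement membrane, were not called: Col15a1 was at 10.22, 10.19 and 10.28 in sham atria and 10.31, 10.25 and 9.88 in shunt atria, and Col18a1 at 6.60, 6.31 and 6.61 against 6.65, 6.41 and 6.02. For both, the low array was atrial shunt 3. In the ventricle Col15a1 lay at 9.77 to 9.86 in sham and 9.72 to 9.84 after shunt, and Col18a1 at 6.06 to 6.42 and 6.35 to 6.48.

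**Figure D2:**
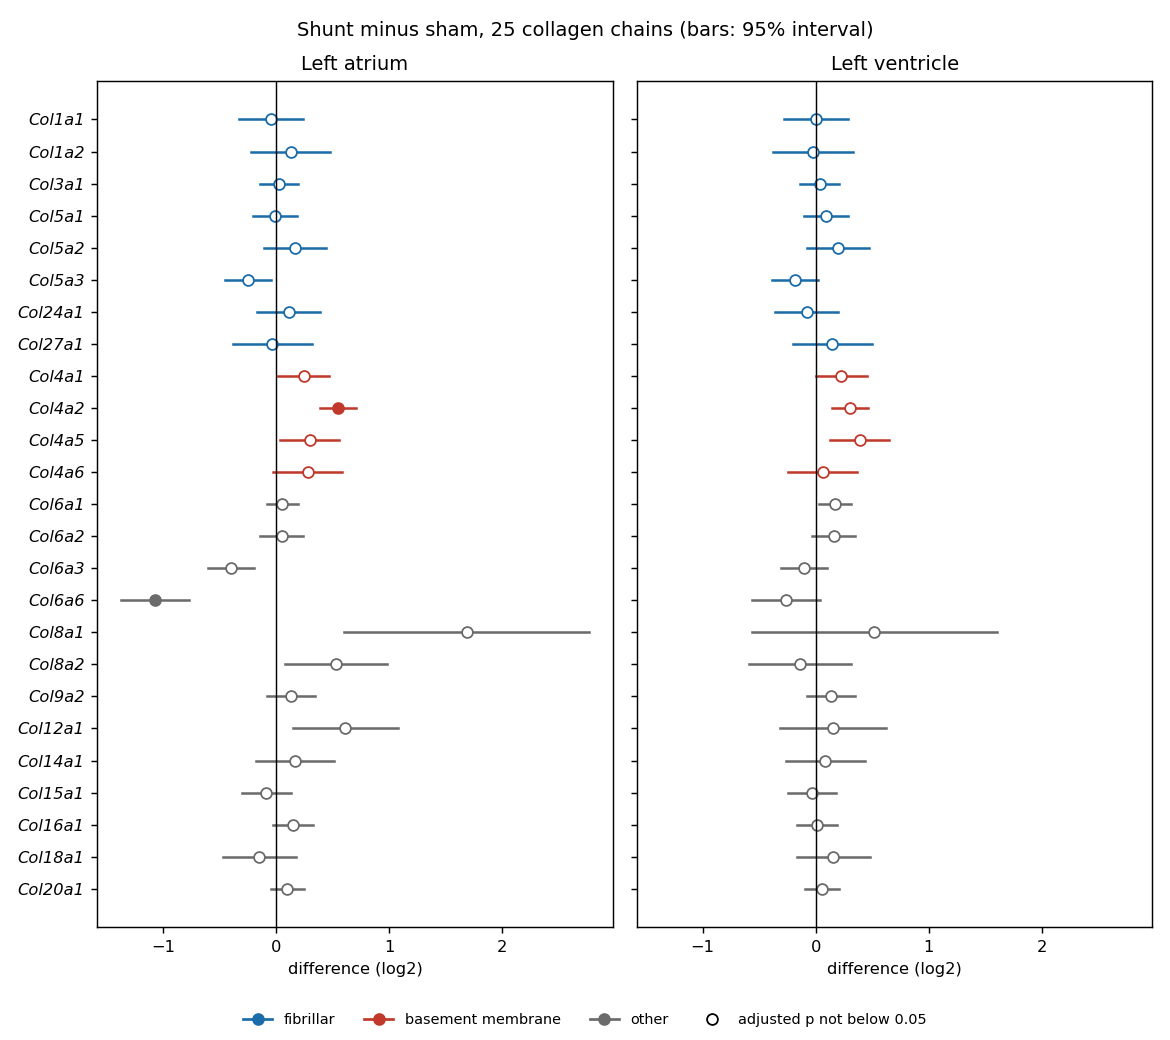
Shunt minus sham difference (log2, horizontal axis) of 25 collagen chains in left atrium and left ventricle; points are limma estimates from 3 arrays per group, bars are 95% intervals, filled points have an adjusted p under 0.05 and colours give the class. The 4 type IV chains lie right of 0 in both panels, and the fibrillar chains lie between -0.25 and 0.20.

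Set side by side, the classes differed in how their members lay around 0. All 4 basement membrane chains were above 0 in either chamber, with a median of 0.29 in the atrium and 0.26 in the ventricle. Other chains had a median of 0.10, with 9 above and 4 below, in the atrium and of 0.09, with 9 above and 4 below, in the ventricle. The groups did not overlap for 6 higher and 3 lower of 25 genes in the atrium, where 8.33% of all probe sets were higher and 12.4% lower in this sense. In the ventricle 5 were higher and 0 lower, against 10.1% and 10.7%. Among those higher in the atrium were Col9a2 and Col20a1, both near the filter value. The difference between classes was not tested, since it would compare lists of genes. Other laminin, nidogen and proteoglycan genes of the basement membrane, a list of 15 genes with 12 tested, had 0 calls by limma in either chamber. Their medians were -0.03 in the atrium and 0.08 in the ventricle. An unadjusted p under 0.05 was found for 0 in the atrium and 3 in the ventricle, beside 2838 and 2732 of all 18625 probe sets.

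On single arrays the basement membrane median, taken against the sham mean of the same chamber, was 0.54, 0.35 and 0.03 on atrial shunt arrays 1, 2 and 3, and 0.13, 0.35 and 0.24 on the ventricular ones. The fibrillar median was 0.16, -0.06 and -0.14 in the atrium and 0.02, 0.17 and -0.06 in the ventricle. It thus changed sign between arrays of 1 group, while the basement membrane median was above 0 on all 6 shunt arrays. On the sham arrays the basement membrane median ran from -0.02 to 0.01 in the atrium and from -0.05 to 0.04 in the ventricle, so that atrial shunt 3 lay just above the atrial sham arrays and below the highest ventricular one. Other chains had medians of 0.19, 0.06 and 0.00 in the atrium and 0.06, 0.08 and -0.03 in the ventricle. On atrial shunt 3 every class median was the lowest of its group, and that array's high hexokinase difference stood beside it; the part of RNA quality was not tested.

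**Figure D3:**
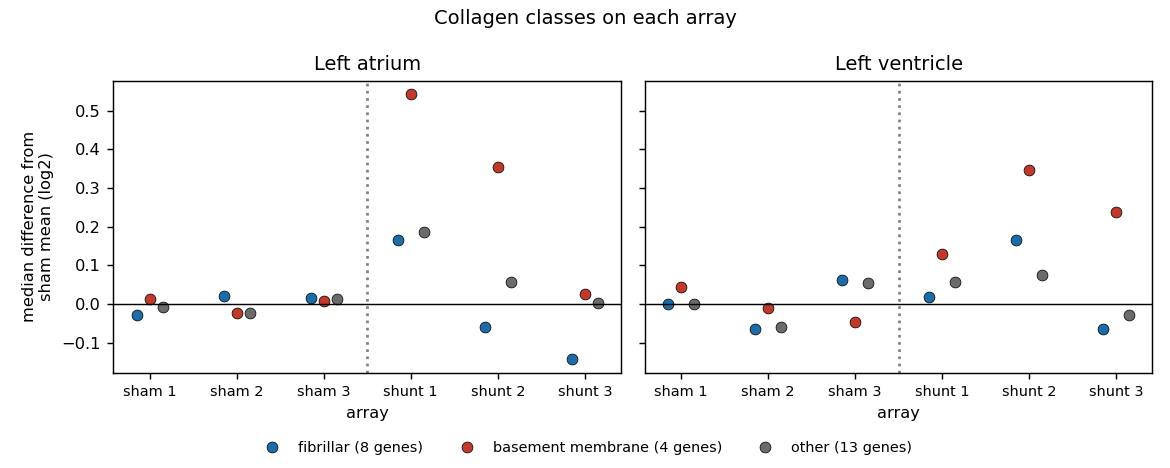
Median difference (log2, vertical axis) of the fibrillar, basement membrane and other chains on each array from the sham mean of its chamber; each point is a median over 8, 4 or 13 genes and the dotted line parts sham from shunt arrays. The basement membrane points are at 0.54 and 0.35 on atrial shunt arrays 1 and 2 and at 0.03 on array 3.

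Averaged over both chambers, 3 collagen probe sets were called (limma; 4.8% of all probe sets were): Col4a2 and Col4a5 rose and Col6a6 fell. Without atrial shunt 3 the number was 8, and the share of all probe sets called in that fit is not given here. A further fit left out the 3 arrays of highest hexokinase difference, which are atrial shunt 3 and ventricular shunt 1 and 3. In that fit the atrial differences were 0.36 for Col4a1, 0.43 for Col4a5, 0.33 for Col14a1 and 0.34 for Col1a2. It leaves 1 ventricular shunt array, which is assumed to vary like the other groups. The shunt atria it keeps had hexokinase differences of 0.80 and 0.94, under the 1.01 to 1.10 of the sham atria. The shunt ventricle it keeps had 0.82, under the 0.84 to 1.02 of the sham ventricles. Shunt and hexokinase difference thus cannot be told apart in that fit.

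Whether the shunt acted differently on the chambers was tested by the difference of both effects. No collagen probe set was called (limma; 4 had an unadjusted p under 0.05), and none of the 18625 probe sets was (1229 unadjusted; 0% called). The largest differences of effects were those of Col8a1, 1.17 with an interval of -0.36 to 2.70, and of Col6a6, -0.82 with an interval of -1.24 to -0.39 (limma adjusted p = 0.371). That Col4a2 and Col6a6 were called in the atrium and not in the ventricle therefore does not show that the chambers responded differently.

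The chambers themselves differed more in collagen expression than sham and shunt did. In sham hearts 22 of 35 collagen probe sets were called between atrium and ventricle (limma), 16 higher and 6 lower in the atrium, against 47.2% of all probe sets, with 25.2% higher and 22% lower. Against a minimum fold of 1.5, 2 probe sets passed. The share of all probe sets that passed this test is not given here. By genes, 11 were higher and 5 lower of 25, with a median difference of 0.27, beside 0.00 over all probe sets.

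The chains of types I and III, and Col5a2, were higher in the sham atrium: Col1a2 by 0.94 ± 0.16 (limma adjusted p = 0.000508), Col1a1 by 0.88 ± 0.13, Col3a1 by 0.60 ± 0.08 and Col5a2 by 0.46 ± 0.12 (limma adjusted p = 0.00983). For each of these the lowest sham atrium was above the highest sham ventricle. Col5a1 did not follow, with a difference of 0.07 and an interval of -0.12 to 0.26. Col5a3 was lower in the atrium, with a difference of -0.41 ± 0.09 (limma adjusted p = 0.00382). Col24a1, at 4.34, 4.20 and 4.21 in sham atria and at 4.92 or more in sham ventricles, was also lower (-0.70 ± 0.13, limma adjusted p = 0.000833). Both groups of this gene lay within 1 unit of the filter value.

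Type IV split by gene pair. Col4a1 and Col4a2 were lower in the sham atrium, with differences of -0.66 ± 0.10 and -0.73 ± 0.07 (limma adjusted p = 0.000276 and 9.07e-06). Col4a5 and Col4a6 were higher, by 0.89 ± 0.12 and 1.17 ± 0.14 (limma adjusted p = 8.74e-05 and 3.31e-05). None of these 4 overlapped between sham atria and sham ventricles, and both genes of each head-to-head pair shown above thus lay on 1 side. The second Col4a1 probe set was also lower in the atrium, with a difference of -0.79, and a second Col4a6 probe set that lay below the filter was at 4.64, 4.59 and 4.31 in sham atria and 2.56, 2.64 and 2.75 in sham ventricles.

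Of the other chains, Col14a1 had the largest chamber difference, 1.23 ± 0.16 (limma adjusted p = 6.37e-05). Col6a6 was higher in the sham atrium by 0.72 ± 0.14, Col12a1 by 0.62 ± 0.21, Col15a1 by 0.42 ± 0.10 and Col6a2 by 0.25 ± 0.09. Col20a1 was lower, with a difference of -0.27 ± 0.07. It was at 4.21 to 4.30 in sham atria and 4.46 to 4.57 in sham ventricles, near the filter value of 4.01. The calls of Col12a1 (limma adjusted p = 0.0322) and Col6a2 (0.0357) were close to the threshold. Col12a1 lost its call without sham atrium 2 or 3 or without sham ventricle 1 or 3, and Col6a2 without any 1 sham atrium or without sham ventricle 2 or 3. Col6a1 and Col6a3 were not called, with 0.15 ± 0.06 and 0.08 ± 0.09, so that of the type VI core only Col6a2 passed, and not after a further quantile normalization (limma adjusted p = 0.0617). The second Col6a2 probe set differed by -0.03.

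**Figure D4:**
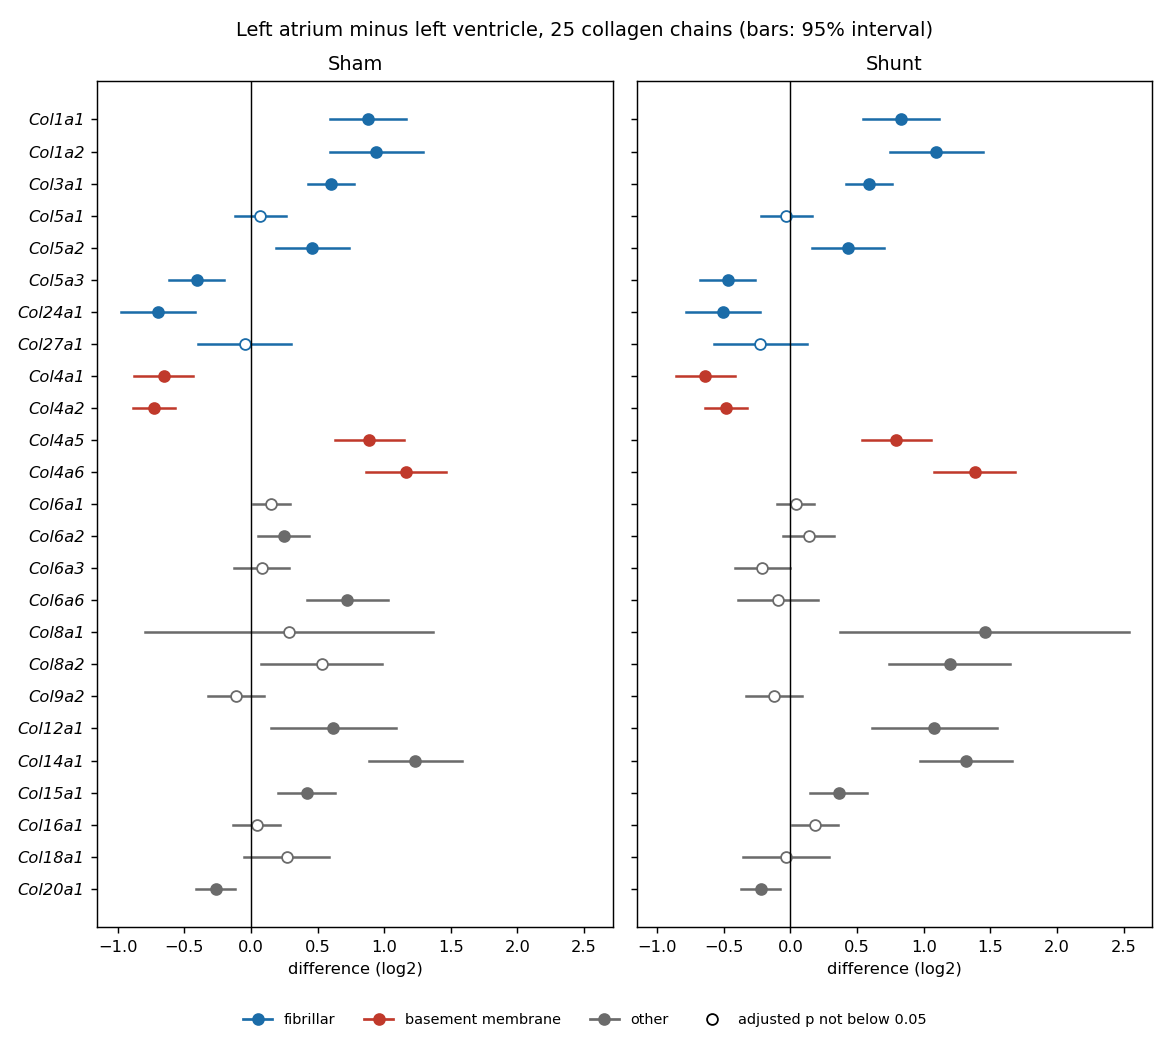
Left atrium minus left ventricle difference (log2, horizontal axis) of 25 collagen chains in sham and in shunt hearts; points are limma estimates from 3 arrays per group, bars are 95% intervals, filled points have an adjusted p under 0.05 and colours give the class. Col4a1 and Col4a2 lie left of 0 and Col4a5 and Col4a6 right of 0 in both panels, and Col6a6 moves from 0.72 in sham to -0.09 in shunt hearts.

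After shunt, 22 probe sets were again called between chambers (limma; 41.9% of all probe sets were), 16 higher and 6 lower in the atrium, beside 22.4% and 19.4%. Col1a1, Col1a2, Col3a1, Col5a2, Col14a1, Col4a5 and Col4a6 were still higher, and Col4a1, Col4a2, Col5a3 and Col24a1 still lower. Col4a2 differed by -0.48 ± 0.07 and Col4a6 by 1.38 ± 0.14. Col6a6 was no longer called, at -0.09 ± 0.14 (limma adjusted p = 0.626), and neither was Col6a2 at 0.14 ± 0.09. Col8a2, 1.19 ± 0.21 (limma adjusted p = 0.000630), and Col8a1, 1.46 ± 0.50 (limma adjusted p = 0.0335), were called after shunt and not in sham. Col8a1 lost this call without atrial shunt 1 or 2, where the difference was 1.02 and 1.36, or without ventricular shunt 1 or 3, where it was 1.17 and 1.20. Col5a2, called at 0.43 ± 0.12, lost it without atrial shunt 1 or ventricular shunt 3. The change of a chamber difference from sham to shunt is the difference of effects tested above, which called none of them. Chamber and shunt comparisons share arrays, such as the sham atria, and are not independent of each other.

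Markers of other cells differed between the chambers too, where 25.2% of all probe sets were called higher and 22% lower in the sham atrium (limma). Fibroblasts are the main source of types I and III, and the mean level of 8 fibroblast markers was 9.56 to 9.64 in sham atria and 9.15 to 9.23 in sham ventricles, with 6 of 8 higher in the atrium and 1 lower. Of 5 mesothelial markers tested of a list of 6, 4 were higher and 1 lower in the sham atrium, and the list's mean level was 6.75 or more there against 4.14 to 4.18 in sham ventricles. Pericyte markers, of cells that share the capillary basement membrane, had 0 higher and 4 lower of 5, and mean levels of 7.48 to 7.61 in sham atria and 7.96 to 8.01 in sham ventricles. Endothelial markers, of the other capillary cell type, went both ways, with 1 higher and 2 lower of 5, and had nearly equal mean levels of 8.54 to 8.58 and 8.52 to 8.55. Of 2 endocardial markers 1 was higher in the atrium, with mean levels of 6.62 to 6.76 against 5.40 to 5.58. Smooth muscle markers were lower in the sham atrium for 3 of 3 tested (6.71 to 6.86 against 7.07 to 7.14). In bulk tissue, fewer cells of a type and less RNA per cell cannot be told apart, and the part of cell makeup in the collagen differences was not tested.

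In the atrium, 5 of 50 cell type markers tested were called higher with the shunt and 1 lower (limma), where calls took 1.3% of all probe sets. Of 4 ventricular myocyte markers 2 rose, with a list median of 0.92. The list's mean levels were 5.32 to 5.86 in sham and 6.20 to 6.65 in shunt atria. Irx4, a member of this list, went the other way without being called. It was at 3.22 to 3.58 in sham atria and 2.95 to 3.24 in shunt atria, all under the filter value of 4.01. Of the Schwann cell list only Sox10 and Prph were tested, and Prph alone rose. Sox10 was at 4.36, 4.23 and 4.19 in sham and 4.41, 4.42 and 4.21 in shunt atria, so the rise is that of 1 gene and not of the cell type. Of 5 mesothelial markers 1 fell. Of 5 activated fibroblast markers 2, Cthrc1 and Meox1, rose. The list's mean level was 5.25 to 5.29 in sham atria and 5.86, 5.76 and 5.41 in shunt atria 1, 2 and 3. It was highest on array 1 and lowest on array 3, as were Col8a1 and the medians of every collagen class. The macrophage, mesothelial, endothelial and pericyte lists had that order too, so it is not particular to these markers. The mesothelial list had 6.75 or more in sham atria and 6.90, 6.87 and 6.27 in shunt atria. Macrophage markers, none of 5 called (limma; 1 unadjusted), had mean levels of 6.60 to 6.73 in sham atria and 7.03, 6.98 and 6.39 in shunt atria, again lowest on array 3. In the ventricle 0 of 50 markers tested were called by limma. An unadjusted p under 0.05 was found for 13, beside 2732 of all 18625 probe sets. Endothelial markers, of the cells that line capillaries, had mean levels of 8.54 to 8.58 in sham and 8.46 to 8.65 in shunt atria, and of 8.52 to 8.55 in sham and 8.66 to 8.67 in shunt ventricles. Thus they overlapped in the atrium and were higher after shunt in the ventricle. In the ventricle the means of the macrophage, mesothelial, pericyte, Schwann and ventricular myocyte lists were also higher without overlap. Those of the smooth muscle list were lower without overlap. Of all single probe sets, 10.1% were higher and 10.7% lower in this sense in the ventricle, and no such share is given for list means. The pericyte means were parted by little. The Schwann list rests on Sox10 and Prph, and Sox10 itself overlapped. Pericyte markers had 7.48 to 7.61 in sham and 7.40 to 7.87 in shunt atria, and 7.96 to 8.01 and 8.03 to 8.20 in the ventricles. The part of these cells in the collagen values was not tested.

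Collagen chains depend on enzymes that modify, trim and cross-link them. A list of 32 such genes had 24 named on the array and 22 tested. None was called in either chamber (limma). An unadjusted p under 0.05 was found for 4 in each, beside 2838 of all 18625 probe sets in the atrium and 2732 in the ventricle. In the average over both, where 4.8% of all probe sets were called, 3 rose. Plod2, a lysyl hydroxylase that prepares cross-links, rose by 0.42 ± 0.09 (limma adjusted p = 0.0241). Lox, the lysyl oxidase that forms them, rose by 0.40 ± 0.10 (limma adjusted p = 0.0415). Sparc, a collagen-binding matrix protein, rose by 0.18 ± 0.04 (limma adjusted p = 0.0368). Plod2 was at 6.54, 6.50 and 6.51 in sham atria and 7.06, 7.09 and 6.72 in shunt atria, and at 5.93, 5.89 and 6.02 in sham ventricles and 6.22, 6.64 and 6.18 in shunt ventricles. Every shunt array was above every sham array of its chamber. Lox was at 5.94, 5.92 and 5.84 in sham atria and 6.68, 6.19 and 5.95 in shunt atria, and at 5.99 to 6.06 and 6.39 to 6.48 in sham and shunt ventricles. Sparc was at 10.61 to 10.66 in sham atria and 10.79 to 10.93 in shunt atria, and at 10.57 to 10.58 and 10.62 to 10.76 in the ventricles. Neither gene's groups overlapped in either chamber. Of the 12 fits that left out 1 array, Plod2 was called in 6 and Lox and Sparc in 2 each.

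Between chambers in sham hearts, 15 of these 22 genes were higher in the atrium and 1, Plod1, lower (named after its value was seen), with a median of 0.32, where 25.2% of all probe sets were higher and 22% lower. The smallest p-values were those of P3h4, a partner of lysyl hydroxylation in the endoplasmic reticulum, 1.26 ± 0.12 (limma adjusted p = 6.41e-06), of Bmp1, the protease that removes the C-terminal propeptide, 0.81 ± 0.10 (limma adjusted p = 3.04e-05), and of Ppib, a prolyl isomerase of collagen folding, 0.51 ± 0.06 (limma adjusted p = 4.31e-05). Of the other basement membrane genes, 5 of 12 were higher and 3 lower in the sham atrium, with the 3 lower of 12 close to the 22% of all probe sets. The perlecan gene Hspg2 (-0.48) and the laminin chain Lama5 (-0.56) were lower, and the laminin chain Lamb3 (0.92) was higher.

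Collagen receptors had 4 of 10 genes tested. In the average over both chambers Itga1, the alpha subunit of an integrin that binds type IV and type I collagen, rose by 1.12 ± 0.27 (limma adjusted p = 0.0385). It was at 7.15, 7.03 and 6.54 in sham atria and 8.10, 7.31 and 8.20 in shunt atria, and at 7.50, 7.52 and 6.16 in sham ventricles and 8.61, 7.70 and 8.67 in shunt ventricles. Groups did not overlap in either chamber. The highest value in the atrium and the 2 highest in the ventricle were on the 3 arrays of highest hexokinase difference. Atrial shunt 1, however, was at 8.10 with a hexokinase difference of 0.80, the lowest of the shunt atria. The part of RNA quality was not tested. Without those 3 arrays, a fit that keeps 1 ventricular shunt array, the average rise of Itga1 was 0.72 against 1.12. It was called in 3 of the 12 fits that left out 1 array. In sham hearts the receptor kinases Ddr1 and Ddr2 were higher in the atrium by 0.90 and 0.24, and Itga1 differed by -0.15, which was not called.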

How the data were processed

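Expression was measured on 12 one-colour Affymetrix rat arrays, 3 per group, each from 10 µg of pooled total RNA taken 28 days after operation. The deposited values are log2 values made by the authors with RMA, per the submitters' processing notes, whose version and whose set of arrays normalized together are not given in the sources used here; RMA equalizes the arrays, so a change common to all genes would be lost. Arrays have no read depth, and their number limits the precision. The members and lists were chosen with earlier results of these data known. The 57 control probe sets were left out, and 18625 probe sets with a mean at or above the 40th percentile (4.01) were tested. Symbols of the platform annotation (20826 probe sets with 1 symbol, 436 with several, 9780 unnamed here) were updated by Entrez identifier to the GRCr8 gene table (20758 matched, 68 kept as they were).

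A linear model with a mean for each group was fitted to all 12 arrays in limma 3.58.1 (functions lmFit and eBayes, R 4.3.3) without a block, with 8 residual and 3.68 prior degrees of freedom, for 6 contrasts. Tests are two-sided, the Benjamini-Hochberg adjustment covers all 18625 probe sets, the threshold is 0.05, and errors are standard errors. Values on every array were given for chains called in a shunt comparison, for a fixed set of main chains, and for the 4 largest called chamber differences in each direction; of partner genes, those called in a shunt comparison and the 3 of smallest p per list between chambers were named. Data were simulated for the atrial comparison, with 18625 probe sets. The fit recovered 68% of 50 changes of 0.5, 98% of 50 changes of 1, and 100% of those of 1.5 and of 2. There were 5 other calls. The simulated noise was independent between probe sets, with the same spread on all arrays, and no array stood apart from its group. In the measured shunt atria an array did, so the recovery there can be lower and was not measured. Alternatives were quantile normalization, a trended robust prior, testing without a filter or above the 60th percentile, only the groups compared, replicate blocks, averaging the probe sets of a gene, a minimum fold of 1.5, the hexokinase difference as a covariate, a fit without the 3 arrays where it was highest, and leaving out each array. They were extended to the partner genes called in the average effect after seeing the data.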

Additional observations from a re-analysis of the deposited data

Results flagged for a closer look

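A second Col4a6 probe set lay below the filter on mean level and entered no test, yet its arrays separated the chambers. Its mean was 4.51 (SD 0.18, n = 3) in sham atria and 2.65 (SD 0.09, n = 3) in sham ventricles, a difference of 1.86, in the same direction as the tested Col4a6 probe set. After shunt it was 4.92 (SD 0.58, n = 3) in the atrium and 2.77 (SD 0.11, n = 3) in the ventricle, a difference of 2.15. The highest value, 5.53, was on atrial shunt 1.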

How the results depend on the processing

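With 3 pools per group and 1 spread estimated over all groups, small changes can be missed, and low chains such as Col9a2 and Col24a1 lie near the filter. The number of collagen probe sets called was within 1.5 times its main value under most settings, with these exceptions. In the left atrium it was 2, and 0 with a minimum fold of 1.5, 6 with the hexokinase difference as a covariate and 10 without the 3 arrays of highest difference. In the left ventricle it was 0, and 1 with a trended robust prior and 2 with the covariate. In the average of both chambers it was 3, and 0 with the minimum fold, 13 with the covariate and 12 without the 3 arrays. Between chambers it was 22 in sham and 22 after shunt, and 2 in each with the minimum fold. Leaving out 1 array gave 2 to 5 in the atrium, 0 in the ventricle, 2 to 8 in the average, 0 for the difference of effects, 20 to 23 in sham and 19 to 23 after shunt; 5 and 8 were reached without atrial shunt 3. The cause was not tested. The share of all probe sets called under each setting is not given here, so a change in the collagen count is not shown to be particular to collagens.

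The replicate numbers were not taken to pair the arrays, since not every pair correlated above 0.1. Deviations of same-numbered atria and ventricles of 1 operation correlated at -0.24 to 0.44, with 4 of 6 pairs above 0.1, and 0 of the 12 pairs of different operation were. As a hint from the data, 6 of 6 sham but 3 of 6 shunt arrays correlated best with their own number in the other chamber. With the replicate block over all groups the counts were 2, 0, 4, 0, 22 and 22 in the order above, and with the block within an operation 2, 0, 2, 0, 22 and 22. The second fit used a random block for the shunt contrasts (consensus correlation 0.15), and in it Col4a5 (limma adjusted p = 0.0601), Itga1 (0.0523), Lox (0.0703) and Sparc (0.0652) did not pass in the average of both chambers.

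No result that was called reversed, but 35 values of chains that were not called did. These were Col5a1 in the atrium with quantile normalization (0.024), and, with the probe sets of a gene averaged, Col14a1 (-0.032) and Col1a2 (0.051) in the ventricle and Col6a3 between chambers in sham (-0.022). With the covariate they were Col15a1 (0.054) and Col1a2 (0.14) in the ventricle. Without the 3 arrays they were Col15a1 (0.048), Col18a1 (0.023), Col1a1 (0.066) and Col5a1 (0.034) in the atrium and Col15a1 (0.028), Col1a2 (0.24) and Col6a3 (0.057) in the ventricle. Leaving out 1 array moved the atrial difference of Col15a1 between -0.17 and 0.048, of Col18a1 between -0.29 and 0.023, of Col1a1 between -0.14 and 0.066, of Col1a2 between -0.019 and 0.34, of Col3a1 between -0.037 and 0.10, of Col5a1 between -0.11 and 0.040 and of Col6a2 between -0.032 and 0.10. It moved the ventricular difference of Col12a1 between -0.014 and 0.37, of Col14a1 between -0.11 and 0.20, of Col1a1 between -0.15 and 0.10, of Col1a2 between -0.15 and 0.051, of Col3a1 between -0.011 and 0.063, of Col8a1 between -0.025 and 0.81 and of Col8a2 between -0.31 and 0.017.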
